A study of Homo sapiens with 8 samples.

Results

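The retinoid receptors, PML and their co-regulators were followed in NB4 cells, an acute promyelocytic leukemia (APL) line that carries the PML/RARα fusion. The 9 genes were taken by name and by role: the retinoic acid receptors RARA, RARB and RARG, the retinoid X receptors RXRA and RXRB, PML, the corepressor genes NCOR1 and NRIP1, and the coactivator gene NCOA3. They are 9 of the 37526 gene names listed for every library. RNA-seq had been done on 8 libraries in 4 groups with 2 replicates each. NB4 cells stably carried a control vector (scramble) or an shRNA against KDM3B (shKDM3B), a histone H3 lysine 9 demethylase, and were sequenced without treatment or after all-trans retinoic acid (scramble+ATRA and shKDM3B+ATRA). The labels call the control an empty vector, whereas the methods of the study describe a scrambled shRNA. The labels give ATRA in µM, at 1 µM for 24 or 48 hours, whereas the methods state the same figure in mM, and the dose is given here as in the labels. The labels do not say which time applies to a library, nor which of the KDM3B hairpins was used. Nothing in the labels says that the replicates were separate transductions, so the p-values measure the spread between these libraries.

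Retinoic acid receptors bind DNA as heterodimers with retinoid X receptors, on direct repeats of a short core motif. Without ligand the pair holds corepressor complexes with histone deacetylases, and ligand binding exchanges these for coactivators with acetyltransferase activity. In APL the fusion of PML to RARα keeps the corepressors on these sites, and pharmacological ATRA releases them and leads to granulocytic differentiation. The normal PML protein builds nuclear bodies, and both PML and the fusion protein are modified by SUMO and ubiquitin. RARB is a textbook target of ATRA through a repeat in its own promoter. Counts per gene cannot separate the reads of the fusion transcripts from those of the normal PML and RARA alleles, so the values of these genes sum over both.

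RefSeq promoter windows, 250 bases before to 50 bases after a start site on GRCh38.p14, were at hand for 8 of the 9 genes, 18 windows in all. They were searched on both strands for the core motif AGGTCA, for its variant AGTTCA, for the form GGGTCA and for the form GGTTCA, and also for direct repeats of these with 1, 2 or 5 bases between them. A core motif lay in 6 of the 18 windows, against 38.6% of the 34943 windows of all genes. A direct repeat lay in 1 of the 18, a window of RARB, with 5 bases between the motifs. Of all windows 0.0887% held this arrangement, and 0.132% and 0.0372% held the repeats with 1 and 2 bases between, which were searched as well. The stretch of 150 bases before that start site (chr3:25428113-25428262, plus strand) is shown for the repeat that it holds, from 53 to 37 bases before the start, and the same stretch of NCOA3 (chr20:47501737-47501886, plus strand) is set beside it because NCOA3 also rose with ATRA. Capitals mark the core motifs.
RARB: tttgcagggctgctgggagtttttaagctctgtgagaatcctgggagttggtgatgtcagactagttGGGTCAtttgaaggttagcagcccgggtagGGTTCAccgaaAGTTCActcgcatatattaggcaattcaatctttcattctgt
NCOA3: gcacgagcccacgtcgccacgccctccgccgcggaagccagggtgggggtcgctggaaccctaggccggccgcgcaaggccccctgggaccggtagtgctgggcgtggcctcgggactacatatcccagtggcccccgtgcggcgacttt
The RARB stretch held 3 core motifs and that of NCOA3 held 0 on either strand, which says only that these letters are not in this window.

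The untreated libraries held 19444480 to 33017787 read pairs assigned to genes, and the treated ones 9708739 to 16882512. The libraries also differed in the share of read pairs that lay in no gene. It was 8.49% to 9.62% in the 4 untreated libraries and 9.36% in scramble+ATRA replicate 1, but 50.0% to 51.4% in scramble+ATRA replicate 2 and both shKDM3B+ATRA libraries. Hence ATRA and this share cannot be told apart in shKDM3B cells, and for the genes tested the changes with ATRA in scramble cells and with the knockdown in treated cells are given below also within libraries of like share. Such a fit has 1 library in an arm and takes its spread from the other arm alone, so its p-value rests on that pair. Whether the libraries were counted with the same strand setting is not given in the sources used here, and the part of such a setting in levels set across the shares was not tested. The corepressor subunit gene GPS2 followed the share and not the treatment, with 7 to 21 counts in the 5 libraries of low share and 2575 to 3137 counts in the other 3. KDM3B itself, the target of the shRNA, was at 187 and 188 counts per 1000000 assigned read pairs (CPM) in scramble, 76.3 and 86.1 in shKDM3B, 196 and 121 in scramble+ATRA, and 52.4 and 57.3 in shKDM3B+ATRA. Here and below CPM values are scaled by TMM over all 8 libraries, with replicate 1 given first. Markers of maturing neutrophils summed to 444 to 452 CPM in scramble and 281 to 286 CPM in shKDM3B cells, and with ATRA to 3364 to 3694 CPM in scramble+ATRA and 1623 to 1980 CPM in shKDM3B+ATRA cells. The promyelocyte markers summed to 4452 to 5531 CPM in scramble and 8549 to 9715 CPM in shKDM3B cells, and to 707 to 844 CPM in scramble+ATRA and 2321 to 3223 CPM in shKDM3B+ATRA cells. The sums of the lines did not overlap, with or without ATRA. The promyelocyte sum was carried by MPO, while ELANE, PRTN3, AZU1 and KIT reached no more than 1.47 CPM in any library. In the neutrophil list CYBB and NCF1 reached the most, 2022 and 1131 CPM, while FCGR1A stayed at 10.2 to 14.5 CPM. With ATRA, ITGAM, ITGAX and CEBPE rose by 3.02, 3.54 and 2.64 on the log2 scale in scramble cells. In shKDM3B cells they rose by 3.12, 3.37 and 2.13, so the sum does not stand for each marker. The 3 erythroid markers were at 0 in every library, and the T cell sum of 217 to 468 CPM came from CD4, with CD3D and CD3E at 1.13 CPM or less. B cell, fibroblast and epithelial markers summed to at most 24.2, 0.919 and 25.2 CPM. A check list of 10 known ATRA response genes had 9 tested and 9 risen in scramble cells, where 7.84% of all genes rose. In shKDM3B cells, where CYP26A1 was not tested, 8 were tested and 8 rose, as 27.5% of all genes did. TGM2 and CYP26B1 had at most 6 counts in any untreated library. They were tested on their treated counts and could hardly do other than rise.

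Per kilobase of exon, RXRA and NCOR1 were the most abundant of these genes in scramble cells, both at 12.5 CPM per kb with SDs of 3.02 and 2.90 (n = 2). RARA followed at 10.0 ± 0.283, PML at 6.88 ± 1.29 and NCOA3 at 3.91 ± 0.563 CPM per kb (SD, n = 2). RARG, RXRB, RARB and NRIP1 lay at 0.0760 CPM per kb or less. The replicates of neighbours in this order overlapped for RXRA with NCOR1 and among RXRB, RARB and NRIP1. In scramble+ATRA cells NCOA3 came first at 26.9 ± 4.66 CPM per kb, and RXRA had moved below RARA, NCOR1 and PML, to 4.50 ± 0.437 (SD, n = 2). RARA at 12.9, NCOR1 at 12.4 and PML at 10.9 CPM per kb stood between them, with overlapping replicates. The shKDM3B+ATRA cells had NCOA3 first at 22.9 and RXRA at 2.71 CPM per kb as well. Of the 9 genes, 6 had counts enough to be tested in every comparison (RARA, RARG, RXRA, PML, NCOR1 and NCOA3), RARB could be tested in all but the untreated cells, and RXRB and NRIP1 in none.

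**Figure D1:**
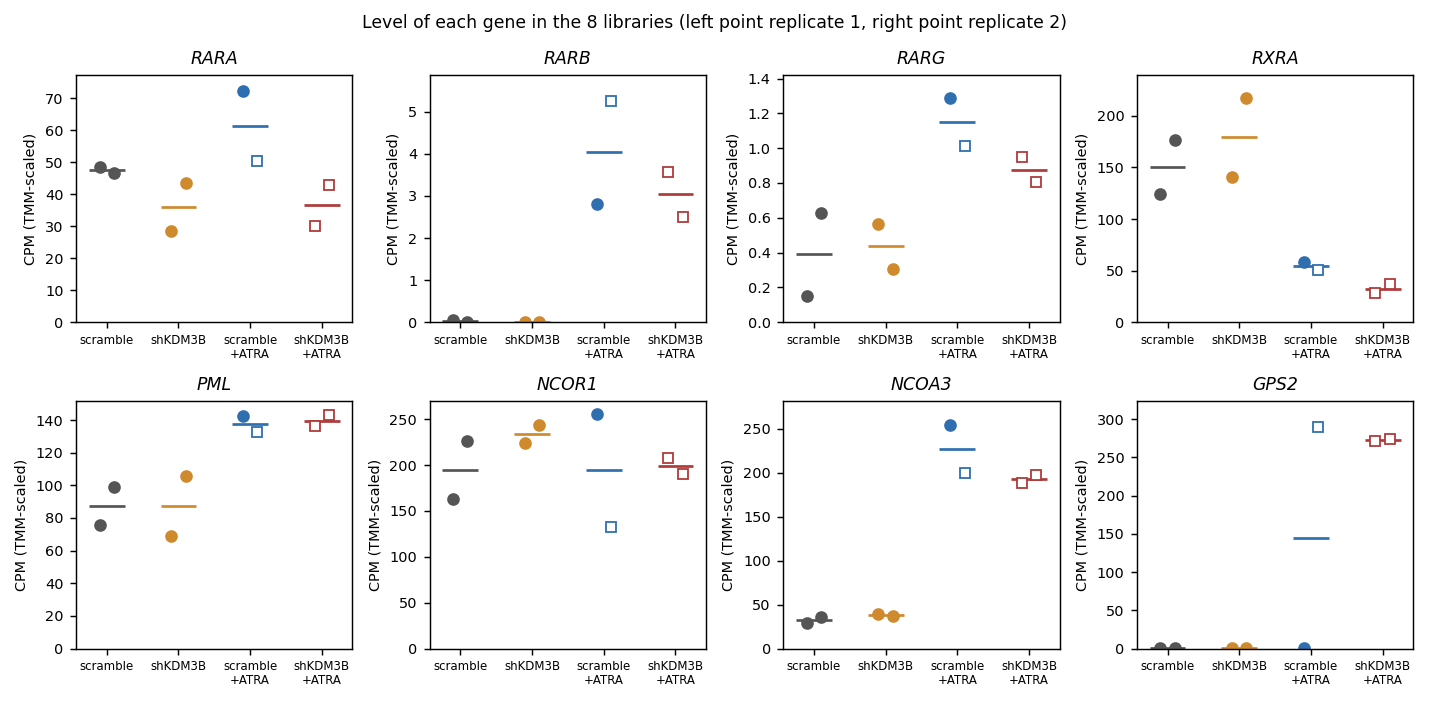
TMM-scaled CPM on a linear axis for 7 of the 9 genes and for GPS2 in the 8 libraries, with replicate 1 on the left, replicate 2 on the right and a bar at the mean of each group. Open squares are the 3 libraries with 50.0% or more of the read pairs in no gene; NCOA3 stands at 29.6 to 39.4 CPM in all untreated libraries and at 188 to 255 in all treated ones, while GPS2 is high in the open squares alone.

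The first question was how ATRA changed these genes in scramble cells. RARB and NCOA3 rose, RXRA fell, and RARA, RARG, PML and NCOR1 did not pass the test, so that 3 of the 7 genes tested were called. A call means a Benjamini-Hochberg adjusted p below 0.05 from edgeR, and 12.9% of all 12429 genes had one, 7.84% higher and 5.06% lower. In shKDM3B cells the same 3 genes and PML were called, 4 of 7, where 50.0% of all 12756 genes were, 27.5% higher and 22.5% lower. Under the threshold of the study, an unadjusted P-value under 0.05 with a fold change of at least 1.5, both comparisons called these 4 genes, against 25.9% and 42.2% of all genes. The treated and untreated libraries did not overlap for 6 of the 7 genes in scramble and 6 in shKDM3B cells, and for 57.4% and 76.7% of all genes. In bulk RNA fewer cells of a type and less RNA per cell cannot be told apart.

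RARB (chromosome 3, 24687887 to 25597932, plus strand on hg38) encodes the retinoic acid receptor beta. It had 1 and 0 counts in scramble and 0 and 0 in shKDM3B cells. With ATRA it had 46 and 57 counts in scramble cells, or 2.82 and 5.25 CPM, and 34 and 25 counts in shKDM3B cells, or 3.58 and 2.51 CPM. All 4 treated libraries were above all untreated ones, and those of the treated groups overlapped each other. With so few untreated counts RARB was tested on its treated counts and could hardly do other than rise. As a bound, the mean of the treated libraries was set against a floor of 3 counts per untreated library, without the treated spread. By this bound the rise was 29.2-fold in scramble cells (adjusted p = 0.00292, edgeR) and 24.8-fold in shKDM3B cells (adjusted p = 4.79e-05, edgeR). In shKDM3B cells it ran from 19.8-fold to 33.1-fold with each library left out. The bound was 20.4-fold with the low-share library scramble+ATRA replicate 1 alone against scramble. No exon base of RARB is shared with another annotated gene, and in scramble+ATRA cells its level was 0.427 CPM per kb, the fourth lowest of the 9 genes.

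RARA (chromosome 17, 40309180 to 40357643, plus strand) encodes RARα, the receptor that is fused to PML in APL. It stood at 48.5 and 46.6 CPM in scramble and 72.2 and 50.3 CPM in scramble+ATRA cells, and at 28.4 and 43.5 CPM in shKDM3B and 30.1 and 42.9 CPM in shKDM3B+ATRA cells. The 2 scramble groups did not overlap, whereas the 2 shKDM3B groups did. The log2 fold change with ATRA was 0.40 ± 0.24 (SE, adjusted p = 0.345, edgeR) in scramble cells and 0.07 ± 0.23 (adjusted p = 0.828, edgeR) in shKDM3B cells. In scramble cells the value was 0.61 with the low-share library scramble+ATRA replicate 1 alone and 0.12 with replicate 2 alone. Its exons are overlapped over 21.4% of their length by genes of the opposite strand, and the part of this overlap in the difference between the scramble+ATRA libraries was not tested.

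RXRA (chromosome 9, 134317098 to 134440585, plus strand) encodes the common partner of the nuclear receptors of this class. It was at 125 and 176 CPM in scramble and 58.1 and 50.6 CPM in scramble+ATRA cells, a fall of 2.70-fold, with a log2 fold change of -1.44 ± 0.24 (SE, adjusted p = 0.00924, edgeR). In shKDM3B cells it was at 141 and 217 CPM without and 28.1 and 37.3 CPM with ATRA, a fall of 5.29-fold with a log2 fold change of -2.40 ± 0.22 (SE, adjusted p = 2.32e-05, edgeR). Each treated library was below each untreated one. Against scramble, the low-share library scramble+ATRA replicate 1 alone gave a log2 fold change of -1.37, close to that of both libraries. Only 0.513% of its exon length is shared with another gene.

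RARG and RXRB were near the limit of detection. RARG (chromosome 12, 53210567 to 53232980, minus strand) had 3 and 15 counts in scramble, 11 and 10 in shKDM3B, 21 and 11 in scramble+ATRA and 9 and 8 in shKDM3B+ATRA cells. In CPM its treated libraries, at 0.803 to 1.29, were above the untreated ones, at 0.151 to 0.629, yet its log2 fold changes of 1.55 ± 0.73 in scramble and 1.11 ± 0.54 in shKDM3B cells (SE) did not pass, with adjusted p = 0.222 and 0.113 in edgeR. With scramble+ATRA replicate 1 alone against scramble the log2 fold change of RARG was 1.67. RXRB (chromosome 6, 33193588 to 33200665, minus strand) had 7 counts in scramble+ATRA replicate 2 and 0 to 2 in the other libraries. Among its 20 nearest protein-coding neighbours from PSMB8 to TAPBP, 16 had 3 or fewer counts in every library (80.0%), compared with 36.7% of 897 other genes of the chromosome. Its low counts were shared with most of its neighbours and are not read here as absence of the receptor.

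NCOA3 (chromosome 20, 47501887 to 47656877, plus strand) encodes a p160 coactivator that binds liganded nuclear receptors and recruits acetyltransferases. It was at 29.6 and 36.3 CPM in scramble and at 255 and 199 CPM in scramble+ATRA cells, a 7.05-fold rise with a log2 fold change of 2.82 ± 0.24 (SE, adjusted p = 0.000671, edgeR). In shKDM3B cells it went from 39.4 and 36.5 to 188 and 197 CPM, 5.26-fold higher, with a log2 fold change of 2.40 ± 0.13 (SE, adjusted p = 6.66e-07, edgeR). The lowest treated library exceeded the highest untreated one in both lines. Scramble+ATRA replicate 1, the library of low share, gave 2.96 on the log2 scale by itself against scramble.

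NCOR1 (chromosome 17, 16029065 to 16218185, minus strand) encodes the platform protein of the histone deacetylase 3 corepressor complex. It stood at 163 and 227 CPM in scramble, 255 and 133 in scramble+ATRA, 224 and 244 in shKDM3B, and 208 and 190 in shKDM3B+ATRA cells. Its log2 fold change with ATRA was 0.03 ± 0.33 (SE, adjusted p = 0.967, edgeR) in scramble and -0.18 ± 0.12 (adjusted p = 0.245, edgeR) in shKDM3B cells. In scramble cells the sign turned with the scaling and with the library left out, at 0.40 with the low-share library scramble+ATRA replicate 1 alone and -0.51 with replicate 2 alone, and the scramble+ATRA replicates were themselves the lowest and the highest of the 8 libraries, on either side of the difference in share. NRIP1 (chromosome 21, 14961235 to 15065936, minus strand), a cofactor of liganded receptors and itself a known retinoic acid target, was listed at 0 in all 8 libraries. A count of 0 allows up to 3 counts, or 0.0920 to 0.316 CPM by library. Of its 16 nearest protein-coding neighbours, 9 had 3 or fewer counts in every library (56.2%), against 47.3% of the other genes of the chromosome, and its exons are shared with other genes over 7.64% of their length. What set these counts at 0 was not tested.

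PML (chromosome 15, 73994673 to 74047827, plus strand) was at 75.6 and 98.8 CPM in scramble and at 142 and 133 CPM in scramble+ATRA cells, and at 68.9 and 106 CPM in shKDM3B and 136 and 143 CPM in shKDM3B+ATRA cells. All treated libraries lay above all untreated ones. The log2 fold change was 0.69 ± 0.22 in scramble cells (SE, unadjusted p = 0.0153, adjusted p = 0.0877, edgeR) and 0.73 ± 0.19 in shKDM3B cells (SE, adjusted p = 0.0102, edgeR). Its value in shKDM3B cells moved to 0.40 without shKDM3B replicate 1 and to 1.07 without shKDM3B replicate 2. In scramble cells it passed without scramble+ATRA replicate 2 or 1, on the spread of the scramble pair alone, at 0.72 and 0.64 (adjusted p = 0.0259 and 0.0339, edgeR). In shKDM3B cells it no longer passed without shKDM3B+ATRA replicate 1 or 2, on the spread of the shKDM3B pair alone, with log2 fold changes of 0.74 and 0.67 that were close to that of all libraries (adjusted p = 0.0546 and 0.0630, edgeR).

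Leaving out either scramble library ended all calls of the ATRA comparison in scramble cells, so that 0 of the 7 genes and 0.0% of all genes passed, and the log2 fold changes then ran from 0.87 to 2.89 for RARG and from -0.22 to 0.28 for NCOR1. NCOA3 had log2 fold changes of 2.65 and 2.96 (adjusted p = 0.172 and 0.147, edgeR), and RXRA of -1.69 and -1.18 (adjusted p = 0.193 and 0.284, edgeR). In these fits the spread came from the scramble+ATRA libraries alone, which differ in the share of read pairs in no gene.

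**Figure D2:**
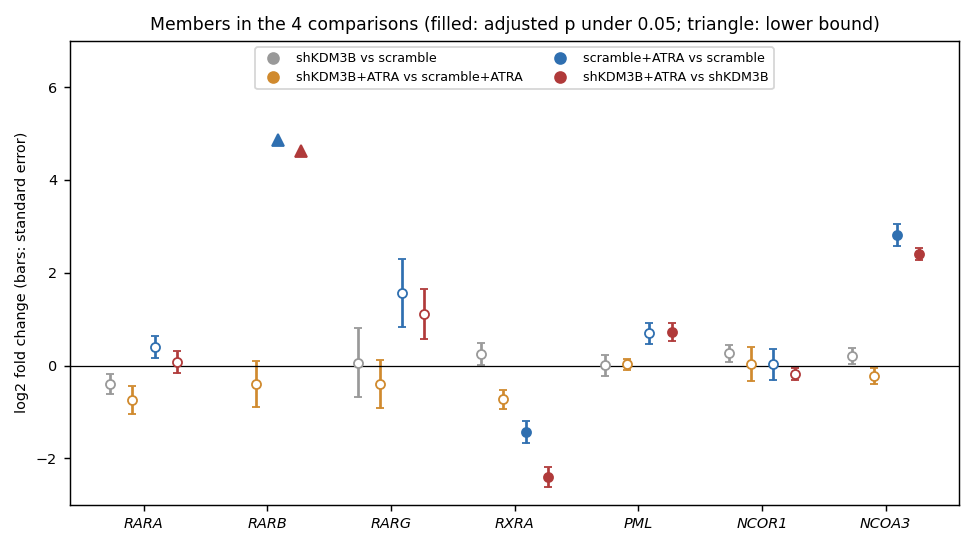
Log2 fold change with its standard error for 7 genes in the 4 comparisons, each in its own color. Filled circles had an adjusted p under 0.05, and the triangles of RARB are lower bounds; NCOA3 lies above and RXRA below 0 with ATRA in scramble and in shKDM3B cells, and no point of the knockdown comparisons is filled.

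The second question was whether the KDM3B knockdown changed these genes. In untreated cells edgeR called 0 of 6 genes tested, where 0.0217% of all 13855 genes were, and 0 passed at an unadjusted p under 0.05, as 10.2% of all genes did, or in DESeq2, which called 2.21% of the genes to which it gave an adjusted p. By the threshold of the study 0 of 6 passed, where 7.01% of all genes did. In simulated data of this comparison 87.5% of 3-fold changes were recovered. Changes as small as the largest of these genes, 1.32-fold for RARA, were not simulated, and no gene with counts as low as RARG was changed. KDM3B itself, 2.31-fold lower, was not called (adjusted p = 0.0680, edgeR), nor was it with ATRA at 2.89-fold (adjusted p = 0.502, edgeR). It passed the threshold of the study in both (unadjusted p = 3.18e-05 and 0.00787, edgeR) and edgeR's adjusted p in all 4 untreated fits that leave out a library, on the spread of the remaining pair alone (adjusted p = 1.13e-05 to 0.00166, edgeR). With all libraries RARA had the largest log2 fold change of the 6 genes, -0.40 ± 0.22 (SE, adjusted p = 0.622, edgeR). Both shKDM3B libraries, at 28.4 and 43.5 CPM, were below both scramble libraries. The value ran from -0.75 to -0.13 with each library left out. At -0.13, without shKDM3B replicate 1, RARA no longer had the largest change, with RXRA at 0.53. RARA and NCOA3 were the 2 genes of 6 whose groups did not overlap, and 40.9% of the genes listed for all libraries did not overlap either. RXRA at 0.25 ± 0.24, NCOR1 at 0.26 ± 0.18 and NCOA3 at 0.20 ± 0.18 on the log2 scale were within about 1.5 SE of 0, and PML at 0.00 ± 0.23 had group means of 87.2 and 87.3 CPM.

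Among ATRA-treated cells 0 of 7 genes were called, as for all 14281 genes (0.0%), although 1 gene, RXRA, passed at an unadjusted p under 0.05, as did 9.68% of all genes, and DESeq2 called 0 of these genes and 4.15% of all genes to which it gave an adjusted p. This comparison could hardly call a gene: 0% of simulated 3-fold changes were recovered at an adjusted p under 0.05. RXRA was at 58.1 and 50.6 CPM in scramble+ATRA and 28.1 and 37.3 CPM in shKDM3B+ATRA cells, a log2 fold change of -0.73 ± 0.21 (SE, unadjusted p = 0.0300, adjusted p = 0.502, edgeR). RXRA was the 1 gene of 7 called by the threshold of the study, where 6.79% of all genes were. RARA was at 72.2 and 50.3 against 30.1 and 42.9 CPM, a log2 fold change of -0.74 ± 0.30 (SE, unadjusted p = 0.0723, adjusted p = 0.533, edgeR). NCOA3, with 255 and 199 against 188 and 197 CPM, had a log2 fold change of -0.23 ± 0.17. RARB at -0.40 ± 0.49, RARG at -0.39 ± 0.51, PML at 0.02 ± 0.12 and NCOR1 at 0.04 ± 0.37 had changes smaller than their SE. RXRA, RARA, RARG and NCOA3 were the 4 genes of 7 whose groups did not overlap, as was so for 50.1% of the genes listed for all libraries.

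Within the 3 treated libraries of high share, that is without scramble+ATRA replicate 1, 3 of 6 genes tested were called, as were 22.8% of all genes. Without scramble+ATRA replicate 2 instead, 4 of 7 were, where 48.6% of all genes were. In the former fit the log2 fold changes of the knockdown were -0.62 ± 0.16 for RXRA (adjusted p = 0.00153, edgeR) and -0.45 ± 0.16 for RARA (adjusted p = 0.0261, edgeR). NCOR1 was at 0.59 ± 0.13 (adjusted p = 7.87e-05, edgeR) in the same fit, and at -0.36 ± 0.12 (adjusted p = 0.00710, edgeR) in the other. NCOA3 passed only in the latter fit, at -0.40 ± 0.12 (adjusted p = 0.00229, edgeR), and stood at -0.04 in the former, where RARB was at -0.78 ± 0.40 (adjusted p = 0.150, edgeR) and PML at 0.08, and RARG was not tested. The log2 fold changes of RXRA, RARA and NCOA3 were below 0 in both of these fits, which share the shKDM3B+ATRA pair. Their groups did not overlap, so with the scaling held, leaving out a library cannot turn the sign. NCOR1 was higher or lower with the choice of control library. In the same comparison the neutrophil sum was lower in shKDM3B+ATRA cells (1623 to 1980 against 3364 to 3694 CPM), the promyelocyte sum was higher (2321 to 3223 against 707 to 844 CPM), and the 9 ATRA response genes tested had a median log2 fold change of -0.72, with 0 called in edgeR and 4 lower by the threshold of the study. All genes had a median of 0.03 there, and 4.37% were lower by that threshold. The part of these sums and response genes in the lower values of RXRA and RARA, neither called with all libraries, was not tested. These fits take the lone scramble+ATRA library to vary like the shKDM3B+ATRA pair. Without either shKDM3B+ATRA library 0 of 7 genes and 0.0% of all genes were called.

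**Figure D3:**
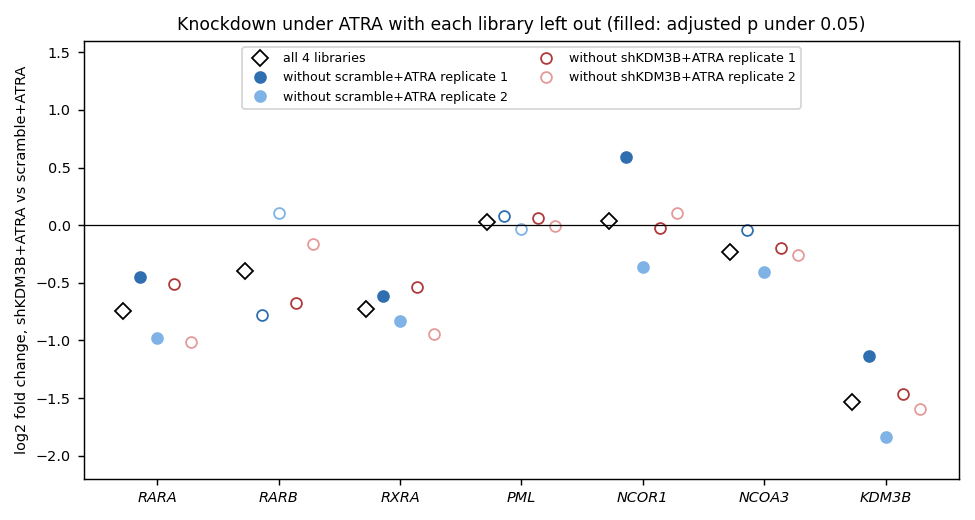
Log2 fold change of shKDM3B+ATRA against scramble+ATRA cells with all 4 libraries (diamonds) and with each library left out (circles), filled where the adjusted p was under 0.05. RXRA, RARA, NCOA3 and KDM3B are below 0 in every fit. Their groups did not overlap, so with the scaling held, leaving out a library cannot turn the sign. NCOR1 is at 0.59 without scramble+ATRA replicate 1 and at -0.36 without replicate 2. KDM3B is shown as the target of the shRNA.

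The third question was whether the response to ATRA differed between the lines, tested as an interaction over all 8 libraries. Of 7 genes edgeR called 0, as for all 13528 genes (0.0%), with 1 gene and 4.49% of all genes at an unadjusted p under 0.05, and DESeq2 called 0 of these genes and 0.229% of all genes to which it gave an adjusted p. RXRA had the difference of -0.99 ± 0.38 on the log2 scale (SE, unadjusted p = 0.0356, adjusted p = 1.00, edgeR), its fall with ATRA being 2.70-fold in scramble and 5.29-fold in shKDM3B cells. It was the 1 gene past the threshold of the study, which 3.99% of all genes passed. The difference was -0.88 for RXRA without scramble+ATRA replicate 1, and between -1.26 and -0.58 over all libraries left out in turn. NCOA3 had a difference of -0.44 ± 0.24 (unadjusted p = 0.111, adjusted p = 1.00, edgeR), and the others had unadjusted p-values from 0.249 to 0.957 in edgeR's test. Of simulated 3-fold differences 45% were recovered.

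The wider receptor and co-regulator machinery was read from lists chosen for their function. Of the corepressor complex genes, 16 tested, 0 rose and 2 fell with ATRA in scramble cells, where 12.9% of all genes were called, with a median log2 fold change of -0.05 beside 0.02 for all genes. TBL1X, an exchange factor of the NCOR complex, fell 10.4-fold from 48.0 and 54.7 to 6.19 and 3.32 CPM (adjusted p = 0.00112, edgeR), and SAP30, a subunit of the SIN3 deacetylase complex, fell 2.99-fold from 14.4 and 15.7 to 5.21 and 4.61 CPM (adjusted p = 0.0166, edgeR). In shKDM3B cells 6 of the 16 rose and 7 fell, where 27.5% of all genes rose and 22.5% fell, with TBL1X 7.47-fold (adjusted p = 1.69e-05, edgeR) and SAP30 4.27-fold lower (adjusted p = 0.000115, edgeR). GPS2 had the largest rise of the list there, 428-fold. With scramble+ATRA replicate 1 alone against scramble, where GPS2 had 10 counts, its log2 fold change was 0.37 ± 0.96 (SE).

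Of 16 other coactivator genes, 1 rose and 0 fell in scramble cells with ATRA, with a median of -0.16 beside 0.02 for all genes, of which 12.9% were called. In shKDM3B cells 2 rose and 6 fell, with a median of -0.35 beside 0.04 for all genes, and the 8 called of 16 are the same share as the 50.0% of all genes. KAT2B, a lysine acetyltransferase, rose 2.08-fold from 15.7 and 10.7 to 26.8 and 27.0 CPM in scramble cells (adjusted p = 0.0487, edgeR) and 2.40-fold in shKDM3B cells (adjusted p = 0.000543, edgeR). PRMT1 and CARM1, arginine methyltransferases that act with the p160 coactivators, fell 2.11-fold and 1.99-fold in shKDM3B cells (adjusted p = 6.03e-05 and 0.000792, edgeR), and had log2 fold changes of -0.71 and -0.73 in scramble cells (adjusted p = 0.0940 and 0.0960, edgeR). The log2 fold changes of all 16 lay between -1.07 and 1.26 in both lines, below those of NCOA3 at 2.82 and 2.40.

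Other nuclear receptor genes were tested in sets of 15 per line. In scramble cells 3 rose and 2 fell, with a median of 0.54, and in shKDM3B cells 5 rose and 4 fell, with a median of 0.27. The sets were not the same, since NR4A3 was tested in scramble cells only and RORA in shKDM3B cells only. Each is among the genes that rose. All genes had 12.9% called and a median of 0.02 in scramble cells, and 50.0% and 0.04 in shKDM3B cells. PPARG, a partner of RXRα, fell 13.9-fold in scramble cells from 8.33 and 6.12 to 0.306 and 0.737 CPM (adjusted p = 0.00511, edgeR) and 3.86-fold in shKDM3B cells (adjusted p = 0.00230, edgeR). With scramble+ATRA replicate 1 alone against scramble its fall was 23.0-fold. PPARA, another partner, was not called in shKDM3B cells, at a log2 fold change of 0.48 (adjusted p = 0.101, edgeR). In scramble cells it rose 4.05-fold from 2.31 and 5.53 to 19.7 and 11.4 CPM (adjusted p = 0.0399, edgeR). The orphan receptor gene NR4A3 rose 5.78-fold there on at most 9 counts per untreated library (adjusted p = 0.0481, edgeR), a call that was lost with scramble+ATRA replicate 1 alone on the spread of the scramble pair, at 4.70-fold (adjusted p = 0.0756, edgeR). In shKDM3B cells NR4A1 fell 3.27-fold (adjusted p = 0.0138, edgeR), while its log2 fold change in scramble cells was 0.54 (adjusted p = 0.452, edgeR). RORA was not tested in scramble cells. In shKDM3B cells it had 0 counts in both untreated libraries, so it was tested on its treated counts and could only rise. Against the floor it was 14.2-fold higher with ATRA (adjusted p = 0.000135, edgeR).

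Among 24 genes of PML bodies and of the SUMO and ubiquitin route, 5 rose and 0 fell in scramble cells, and 8 rose and 3 fell in shKDM3B cells, with medians of 0.04 and 0.00. All genes had 12.9% and 50.0% called in turn, with medians of 0.02 and 0.04. HIPK2, a kinase of nuclear bodies, rose 4.23-fold in scramble cells from 36.8 and 74.6 to 297 and 165 CPM (adjusted p = 0.0166, edgeR). SP110, a nuclear body protein, rose 3.39-fold from 15.8 and 19.0 to 57.8 and 57.7 CPM (adjusted p = 0.00293, edgeR). ISG15, a ubiquitin-like modifier, rose 3.82-fold in scramble (adjusted p = 0.0105, edgeR) and 4.56-fold in shKDM3B cells (adjusted p = 0.000814, edgeR), where UBA7 and UBE2L6, the enzymes that activate and transfer it, rose 4.77-fold and 4.72-fold (adjusted p = 1.27e-05 and 0.00105, edgeR). In scramble cells UBA7 also rose, by 1.54 on the log2 scale (adjusted p = 0.0151, edgeR), and UBE2L6 had 0.64 ± 0.45 (SE, adjusted p = 0.414, edgeR). With the low-share library scramble+ATRA replicate 1 alone against scramble, TBL1X, SAP30, KAT2B, PPARG, PPARA, HIPK2, SP110 and ISG15 kept their direction. In shKDM3B cells there is no library of low share with ATRA. Over these 4 lists the knockdown gave 0 calls of 70 genes without ATRA, with 7 at an unadjusted p under 0.05 in edgeR and 3 called by DESeq2, against 10.2% and 2.21% of all genes. With ATRA it gave 0 of 72 genes, with 2 and 0 by those counts, against 9.68% and 4.15%. The interaction gave 0 of 72, with 4 and 0, against 4.49% and 0.229%.

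**Figure D4:**
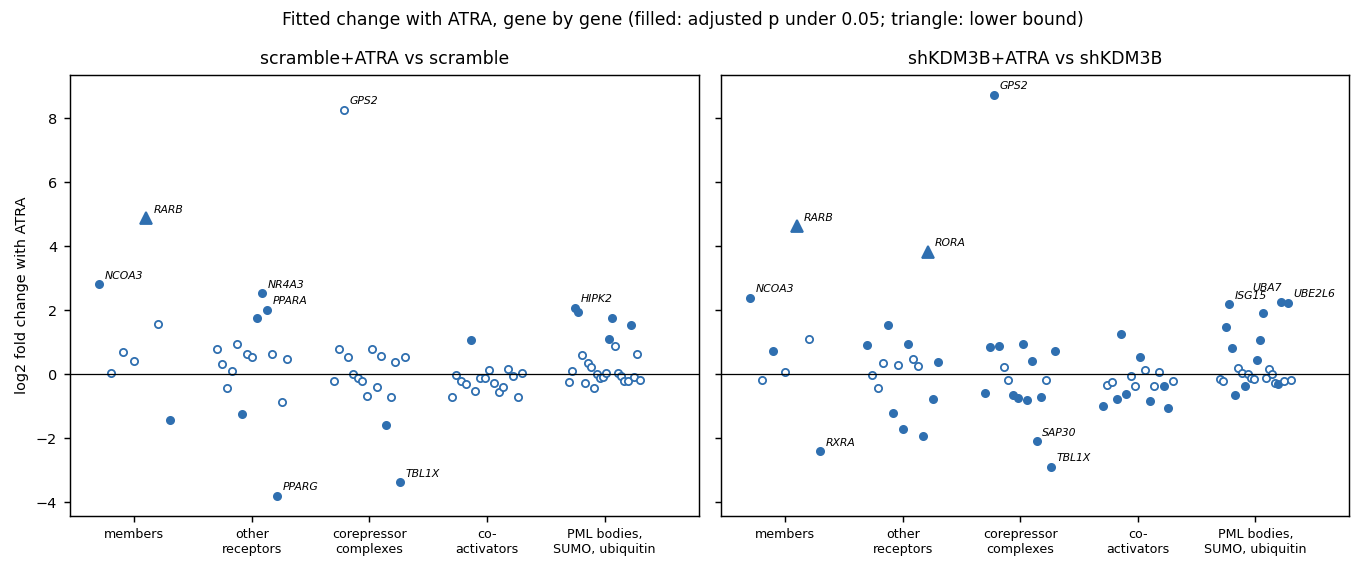
Log2 fold change with ATRA in scramble cells (left) and shKDM3B cells (right) for the 7 tested genes and for the genes of 4 lists, 1 circle per gene, filled where the adjusted p was under 0.05, with triangles as lower bounds. NCOA3 lies above every gene of the coactivator list in both panels, TBL1X is the lowest corepressor gene, and GPS2 is the point near 8 that followed the share of read pairs in no gene.

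For the genes called with ATRA, similar profiles over the 8 libraries were sought among 11941 genes with a mean of at least 1 CPM, by Pearson's r of log2(CPM + 1). They were HOTTIP (r = 0.998) and TRIM38 (r = 0.997) for NCOA3, SSU72 (r = 0.996) and IMPDH1 (r = 0.994) for RXRA, ELOVL6 (r = 0.996) and the pseudogene DEFA8P (r = 0.996) for RARB, and CMIP (r = 0.975) for PML. These are descriptions over 8 libraries that share treatment and sequencing, and the size of the change need not be alike: SSU72 stood at 166 to 179 CPM without and 127 to 147 CPM with ATRA, a far smaller fall than that of RXRA.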

How the data were processed

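The authors aligned trimmed read pairs to hg38 with HISAT2 and counted them on genes with HTSeq, and the deposited files hold raw counts per gene with no normalization. The untreated files list 56470 names and the treated ones 56609, and comparisons with ATRA used the 37526 shared names. Lines that name no gene were left out and held 29.8% to 62.2% of the read pairs of a library. Kit strandedness and the counting mode were not given in the sources used here. Each comparison was fitted with edgeR 4.0.16 (filterByExpr, TMM, quasi-likelihood F test) in R 4.3.3 on its own libraries, and the interaction on all 8. A gene was called at a Benjamini-Hochberg adjusted p under 0.05 over all genes of the fit, and the SE was the log2 fold change over the square root of F. Exact permutation of 2 against 2 libraries cannot go below p = 0.333 (two-sided) and was not used. Bounds set the mean of the treated libraries against 3 counts per untreated library. They cover counting error of the untreated libraries only. Positions and exon lengths are from GENCODE v44, promoters from RefSeq. The fits were tested on simulated counts with 200 genes changed 3-fold. These were drawn from genes of higher counts, and the spread followed the trend over genes and not each gene's own. The genes, lists and markers were chosen with earlier results of these data known. Beside the 9 genes and KDM3B, at most 3 called genes per list and comparison with the largest change were named. Markers of other cell types and GPS2 were named after their values were seen where they fell outside this rule. Alternatives were other scalings, filters, DESeq2 1.42.0, the threshold of the study, the replicate block, all libraries in 1 fit and each library left out. The crossed pairing was chosen after seeing the data. A gene with a profile like that of PML is not reported here.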

Additional observations from a re-analysis of the deposited data

How the results depend on the processing

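With the threshold of the study 1 gene was called for the knockdown with ATRA and 1 for the interaction, in place of 0 each. With each library left out the number of genes called ranged from 0 to 4 for the knockdown with ATRA, from 0 to 4 for ATRA in scramble cells (0 without either scramble library) and from 3 to 5 for ATRA in shKDM3B cells, and was 0 throughout for the untreated knockdown and the interaction. Over all genes the share called in these fits ran from 0.0% to 48.6%, 0.0% to 33.0% and 29.4% to 60.1%, and reached 4.43% for the untreated knockdown and 3.62% for the interaction. PML in shKDM3B cells was no longer called with all 8 libraries in 1 fit (log2 fold change 0.68, adjusted p = 0.0616, edgeR), and PML in scramble cells was called by DESeq2 (0.68, adjusted p = 0.0416) and with the crossed pairing.

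Signs turned as follows, each time for a value that was not called with all libraries. PML in the untreated knockdown was at -9.5e-05 with DESeq2 size factors, -0.020 with library size alone, -0.046 with upper-quartile scaling, -0.00054 with DESeq2 and -0.016 with the replicate block. NCOR1 with ATRA in scramble cells was at -0.067 with library size alone, which moved the median of all genes by -0.10, -0.041 with upper-quartile scaling, -0.020 with no low-count filter, -0.023 with the replicate block and with the crossed pairing, and -0.0020 with all 8 libraries. With a library left out the log2 fold changes spanned, for the untreated knockdown, -0.35 to 0.28 for PML, -0.57 to 1.45 for RARG and -0.11 to 0.53 for RXRA. For the knockdown with ATRA they spanned -0.36 to 0.59 for NCOR1, -0.030 to 0.084 for PML and -0.78 to 0.11 for RARB. For ATRA they spanned -0.51 to 0.40 for NCOR1 in scramble and -0.25 to 0.41 for RARA in shKDM3B cells. For the interaction they spanned -0.63 to 0.32 for NCOR1, -0.25 to 0.42 for PML, -0.63 to 0.050 for RARA, -0.40 to 2.56 for RARB and -1.87 to 0.15 for RARG. The RARB values of the interaction are fitted ratios to untreated groups with 1 count or none and no measure of direction, since without scramble replicate 1 the SE was 389. The cause of these turns was not tested. Of the other values, 289 kept their direction and side of the threshold under the alternatives that kept all libraries and 122 with a library left out.

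Same-numbered libraries deviated together with correlations across genes of 0.437 in untreated and 0.0440 in treated cells, -0.103 across ATRA in scramble and 0.223 in shKDM3B cells, so the numbers were taken as names. With the replicate block 0, 0, 3 and 4 genes were called for the untreated knockdown, the knockdown with ATRA and ATRA in scramble and shKDM3B cells, and 0 for the interaction, as without it. Crossing the pairs in scramble cells gave 4. RARB, RARG, RXRB and NRIP1 had 57 counts or fewer per library, which limits the precision of their values.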
